A study of Mus musculus with 6 samples.

Results

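The genes described here are 59 mouse genes of mitosis, the spindle and cytokinesis, measured by mRNA sequencing in kidneys taken 24 h after ischemia-reperfusion injury (IRI). They were chosen by symbol, but with the values of these same libraries known. The list was selected on the difference between Ptpn6+/mev and wild-type kidneys, and it includes genes that the study itself picked for that difference. The differences given below are therefore a description of the chosen genes, with no support drawn from them. Of the 59 symbols, 58 were found, each on a single row, among the 21367 genes of the table, and the expression of Tacc3 was not analysed here, though its promoter window is among those counted below. The 58 genes were divided by function into 7 roles, from the kinases and cyclins that start mitosis to the proteins that cut the cell apart.

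All 6 libraries came from left kidneys of mice 7 weeks old. The 3 Ptpn6+/mev mice were heterozygous for the viable motheaten allele, a splice-site mutation of the gene for the phosphatase SHP-1, and the 3 wild-type mice were their littermates, with C57BL/6 given as the strain background. In every mouse the right kidney was removed and the left pedicle was clamped for 34 min, so that no library here comes from an uninjured kidney. The allele is present in all cells of the animal and leaves 1 normal copy of the gene. Total counts ranged from 10271590 to 12361745 per library. Ptpn6 itself was 11.9, 14.7 and 13.6 FPKM (fragments scaled to transcript length and library size) in the Ptpn6+/mev mice and 17.5, 10.9 and 15.4 FPKM in the wild-type mice. The groups overlapped, and a level summed over the whole transcript does not check a splice-site genotype. Markers of the proximal tubule summed to between 4729 and 14427 FPKM, which fits the labelled tissue, while 13 lymphocyte markers summed to between 1.83 and 5.63 FPKM. Wild-type mouse 2 stood apart from the other 5 mice, with the lowest sums of endothelial, fibroblast and macrophage markers. It also had the highest proximal tubule sum, by a wide margin through the single gene Kap. The main counts are given below with and without it.

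In mitosis, the kinase CDK1 with its cyclins drives chromosome condensation and spindle assembly, the kinetochores attach chromosomes to spindle microtubules, and the spindle checkpoint holds the cell until every kinetochore is attached. The anaphase-promoting complex (APC/C) then destroys cyclin B and securin, separase opens the cohesin rings, and the central spindle and contractile ring divide the cell. Most genes of this machinery are transcribed late in the cell cycle and are silent in resting cells. Surviving tubular cells of an injured kidney re-enter the cycle to replace those that were lost, whereas the healthy adult tubule divides rarely.

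Late cell cycle genes are known for 2 short promoter elements, so promoter sequence is shown first, as a property that the choice of the genes did not use. The cell cycle homology region (CHR) was searched as TTTGAA or TTCGAA, and the CCAAT box, bound by the factor NF-Y, as CCAAT, each on both strands. RefSeq promoter windows on GRCm38.p6, of 250 bases before to 50 bases after the start of transcription, were at hand for 49 of the 59 genes, in 52 windows. The 8 stretches below run from 130 bases before to 30 bases after the start, 5′ to 3′ on the strand of the gene, with CHR and CCAAT matches of either strand in capitals. They were taken for contrast in the fold changes given later: Cdk1, Prc1 and Kif18b were at 2.81-fold, 4.00-fold and 5.73-fold in Ptpn6+/mev over wild-type kidneys, Cdc20 at 1.85-fold and Ccnb2 at 1.40-fold, and Cks2, Pttg1 and Spc25 at 1.11-fold, 0.870-fold and 0.709-fold.
Cdk1 at chr10:69352883-69353042, minus strand: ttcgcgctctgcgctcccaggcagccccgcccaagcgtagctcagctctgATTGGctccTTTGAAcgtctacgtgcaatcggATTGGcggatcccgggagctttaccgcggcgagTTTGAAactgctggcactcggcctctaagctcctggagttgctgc
Cdc20 at chr4:118437314-118437473, minus strand: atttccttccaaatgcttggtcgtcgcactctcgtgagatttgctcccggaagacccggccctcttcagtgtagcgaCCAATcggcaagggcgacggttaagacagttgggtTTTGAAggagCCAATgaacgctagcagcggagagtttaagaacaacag
Ccnb2 at chr9:70421525-70421684, minus strand: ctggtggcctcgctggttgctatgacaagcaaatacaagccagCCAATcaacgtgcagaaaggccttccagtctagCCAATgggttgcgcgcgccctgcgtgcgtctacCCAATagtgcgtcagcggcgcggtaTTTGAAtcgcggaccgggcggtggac
Prc1 at chr7:80294321-80294480, plus strand: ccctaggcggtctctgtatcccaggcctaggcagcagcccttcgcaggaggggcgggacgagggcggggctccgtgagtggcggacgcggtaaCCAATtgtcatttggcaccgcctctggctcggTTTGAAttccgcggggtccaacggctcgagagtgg
Kif18b at chr11:102925095-102925254, minus strand: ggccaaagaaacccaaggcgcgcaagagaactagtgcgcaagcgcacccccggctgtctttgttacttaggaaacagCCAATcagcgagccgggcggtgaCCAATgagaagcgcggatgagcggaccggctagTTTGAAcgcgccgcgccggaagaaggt
Spc25 at chr2:69206184-69206343, minus strand: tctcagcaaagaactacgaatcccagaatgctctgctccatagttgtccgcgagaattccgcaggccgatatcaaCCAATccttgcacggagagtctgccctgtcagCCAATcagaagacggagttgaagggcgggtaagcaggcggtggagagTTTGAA
Cks2 at chr13:51645102-51645261, plus strand: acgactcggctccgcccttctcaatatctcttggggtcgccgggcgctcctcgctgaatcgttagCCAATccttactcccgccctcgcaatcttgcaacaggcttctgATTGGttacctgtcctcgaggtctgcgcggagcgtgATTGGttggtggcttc
Pttg1 at chr11:43425952-43426111, minus strand: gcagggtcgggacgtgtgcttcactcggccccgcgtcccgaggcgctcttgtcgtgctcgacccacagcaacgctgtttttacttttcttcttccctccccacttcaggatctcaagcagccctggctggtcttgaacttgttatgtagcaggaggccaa

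Each of the first 6 of these stretches holds a CHR match within 30 bases of the start of transcription, on either side of it, and at least 1 CCAAT match upstream of it. In Cdk1 the nearer CHR match lies 15 to 10 bases before the start, and CCAAT matches on the opposite strand lie 80 to 76 and 48 to 44 bases before it. In Ccnb2 a row of 3 CCAAT matches, their first bases 87, 54 and 21 before the start, precedes a CHR match at bases 5 to 10 after it. In Spc25 the match is at bases 25 to 30 after the start, so that sequence of this type was also present in a gene with no higher level in the Ptpn6+/mev mice. Cks2 holds CCAAT matches and no CHR letters in the window, and Pttg1 holds neither, which says only that these letters are not in these 300 bases. The stretches were picked by fold change, so they do not show whether a match goes with a higher level. Over all tested genes without a CHR match, the log2 fold change ran from -0.20 in Pttg1 to 1.86 in Nuf2.

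A CHR match was in 39 of the 52 windows, or 75.0%, against 13.6% of the 13039 windows of the other genes tested and 19.2% of all 32851 windows. In the stretch from 30 bases before to 50 bases after the start, 67.3% of the mitosis gene windows and 2.55% of the windows of other genes tested held a match. A CCAAT match was in 75.0% of the windows against 36.8%, and 2 or more were in 51.9% against 13.4%. In a further list of mitosis genes 36 of 61 windows held a CHR match and 41 (67.2%) a CCAAT match, in S phase genes 24.5% and 57.1%, and in subunits of the APC/C and cohesin 13.0% and 47.8%. The E2F sites typical of S phase genes, searched as TTTGGCGC, TTTCGCGC or TTTCCCGC, were in 3.85% of the mitosis gene windows, 3.18% of the others, 34.7% of the S phase gene windows, 13.1% of those of the further mitosis genes and 17.4% of those of APC/C and cohesin subunits. TATAAA was in 1.92% against 7.47%. The median log2 fold change was 1.28 over the 36 tested genes with a CHR match and 0.94 over the 11 without, and over the 6 with neither element it was 1.34. Those medians are descriptive, since the genes were chosen on that difference, and a letter match is not evidence of binding.

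**Figure D1:**
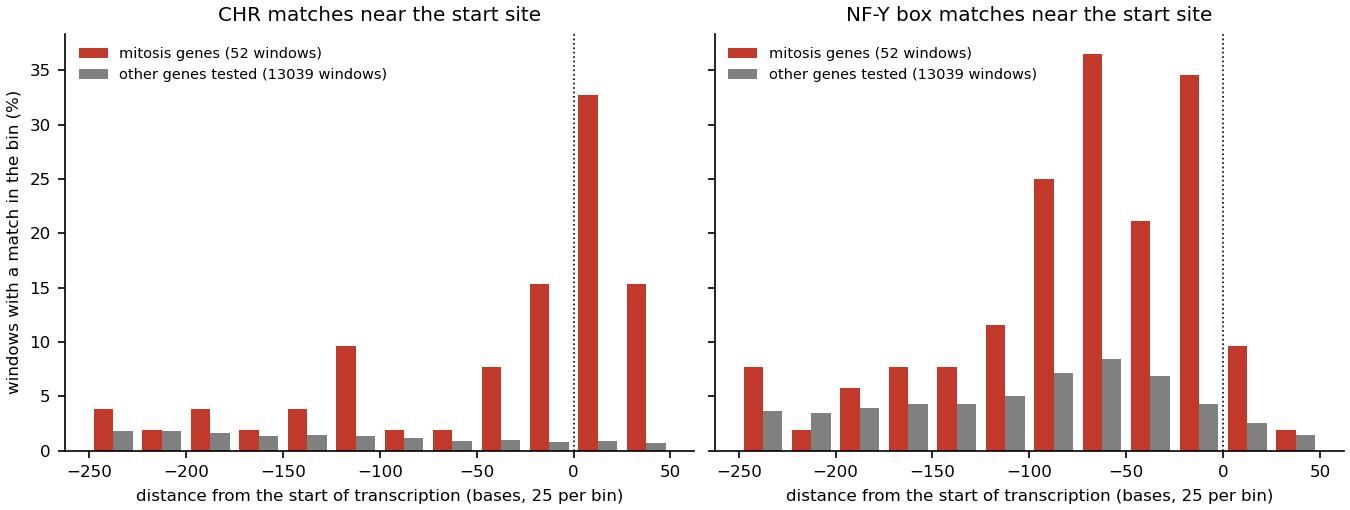
The y axis gives the share of promoter windows, in percent, with a match that starts in each bin of 25 bases, against distance from the start of transcription in bases (x axis), for the CHR and for the CCAAT or NF-Y box. The 52 windows of mitosis genes have CHR matches concentrated around the start, where 67.3% hold a match between 30 bases before and 50 bases after it against 2.55% of the 13039 windows of other genes tested.

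These genes were rare transcripts. Over the 56 genes that passed the filter on low counts, the median level was 1.09 FPKM in wild-type and 2.86 FPKM in Ptpn6+/mev kidneys, against 10.1 and 10.4 FPKM over all 13036 genes tested, and 53 of the 56 were under that median in wild-type mice. The mean was below 1 FPKM for 28 of the 58 genes in wild-type and for 15 in Ptpn6+/mev kidneys. Pttg1, Cks2, Cdk1, Spc25 and Spc24 were the 5 with more than 10 FPKM in either group. The median count was 75 per library in Ptpn6+/mev and 31 in wild-type mice, so that counting error alone is large for the rarer genes, and 11 genes had fewer than 10 counts in some library. Cdc25c and Kif14 fell below the filter. A further 12 genes were below its cutoff in at least 1 wild-type library and were tested with the help of the Ptpn6+/mev libraries. These were Aspm, Bub1, Cdca2, Cenpe, Cenpf, Espl1, Hmmr, Kif15, Kif18b, Kif2c, Ndc80 and Ttk.

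**Figure D2:**
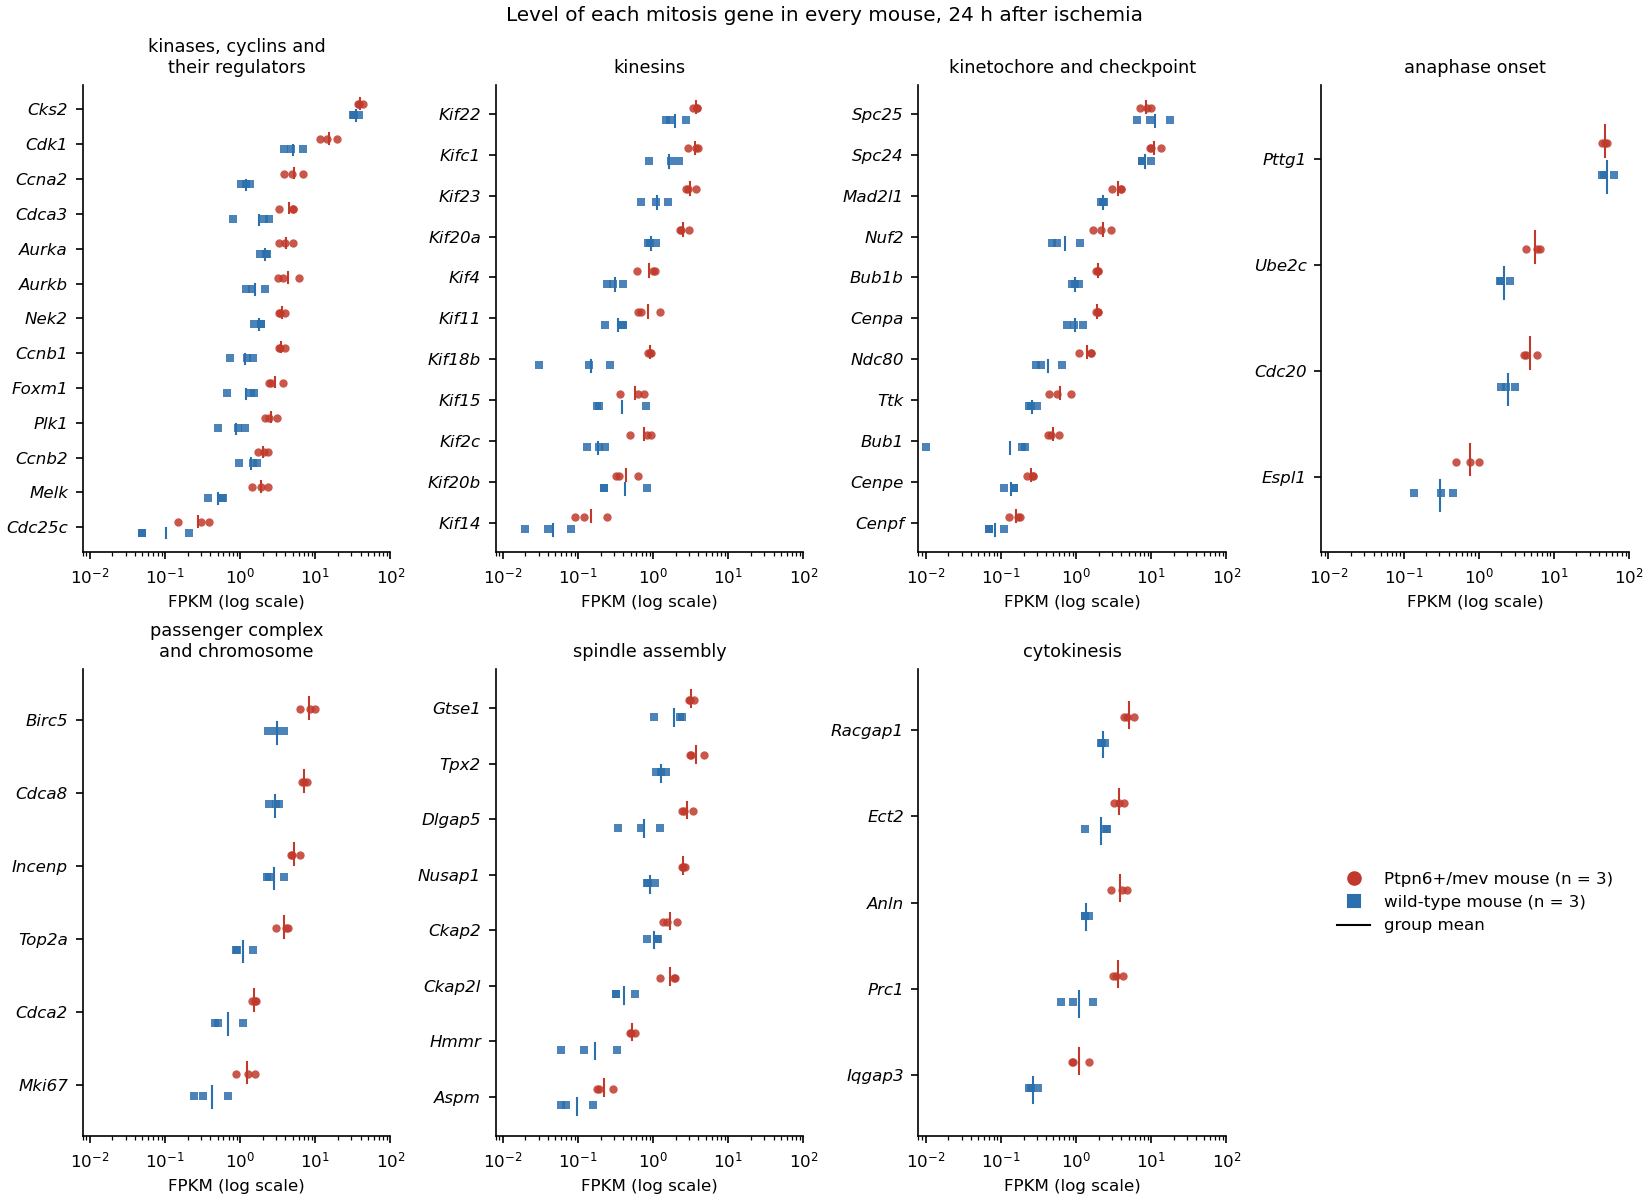
FPKM on a log axis (x axis) of the 58 mitosis genes (y axis) by role, with a red circle for each of the 3 Ptpn6+/mev mice, a blue square for each of the 3 wild-type mice and a tick at each group mean; Bub1 in wild-type mouse 2 is listed at 0 and is drawn at 0.01. Red and blue points are separate for most genes of every role and overlap for Cks2, Spc24, Spc25, Pttg1, Kif15, Kif20b and Cdc25c.

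The genotypes were compared in injured kidneys only. The study reports worse injury in the Ptpn6+/mev mice, with higher serum creatinine and urea nitrogen. The allele and the degree of injury therefore cannot be told apart in these libraries. Cyclin A2 (Ccna2) and the microtubule bundler Prc1 were higher in Ptpn6+/mev kidneys, by log2 fold changes of 2.05 (SE 0.26) and 2.00 (SE 0.22). They were 2 of the 56 genes tested at a false discovery rate (FDR, the Benjamini-Hochberg adjusted p of edgeR's quasi-likelihood test) under 0.05, a call made for 0.069% of all 13036 genes in that direction. The log2 fold change was above 0 for 54 genes and below 0 for Spc25 and Pttg1, with a median of 1.30 against 0.00 over all genes tested. It was above 1 for 36 genes, a size reached by 1.22% of all genes tested. At an unadjusted p under 0.05, 47 genes were higher and 0 lower in Ptpn6+/mev kidneys, against 5.53% of all genes higher. Every Ptpn6+/mev mouse was above every wild-type mouse in FPKM for 50 of the 56, against 14.0% of all genes tested. In CPM (counts relative to the library total) the groups were separate for 48, since Ccnb2, Mad2l1 and Aspm overlapped there and Kif15 did not, and below, separate refers to FPKM. The 56 genes include the 12 that were tested with the help of the Ptpn6+/mev libraries, the group in which they were higher. The genes were selected on this contrast, so nothing is read from these shares. In a bulk kidney sample, a different number of cells in mitosis and a different amount of the RNA in each such cell cannot be told apart.

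How many genes passed the threshold depended on the test. The exact test of edgeR called 33 of the 56 genes higher, against 1.21% of all genes tested, and the Wald test of DESeq2 called 31, against 1.09%. Without wild-type mouse 2, the quasi-likelihood test called 20 of 57, against 0.706% of 13177 genes. In that fit 47 were higher at an unadjusted p under 0.05, against 8.36% of all genes, the groups were separate for 52, against 21.1%, and 37 had a log2 fold change above 1, against 1.31%. By role, the numbers higher at an unadjusted p then differed by at most 1 from those given below. Without any 1 of wild-type mouse 1 and the 3 Ptpn6+/mev mice it called 0, and without wild-type mouse 3 it called Ccna2, Prc1 and Top2a. In those alternatives with 0 calls Ccna2 and Prc1 kept log2 fold changes of 1.80 to 2.23 and 1.93 to 2.10. The median log2 fold change without wild-type mouse 2 was 1.22. Over all 58 genes, without a filter, it was 1.30, and over the 44 genes above the cutoff in all 3 wild-type libraries it was 1.28.

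**Figure D3:**
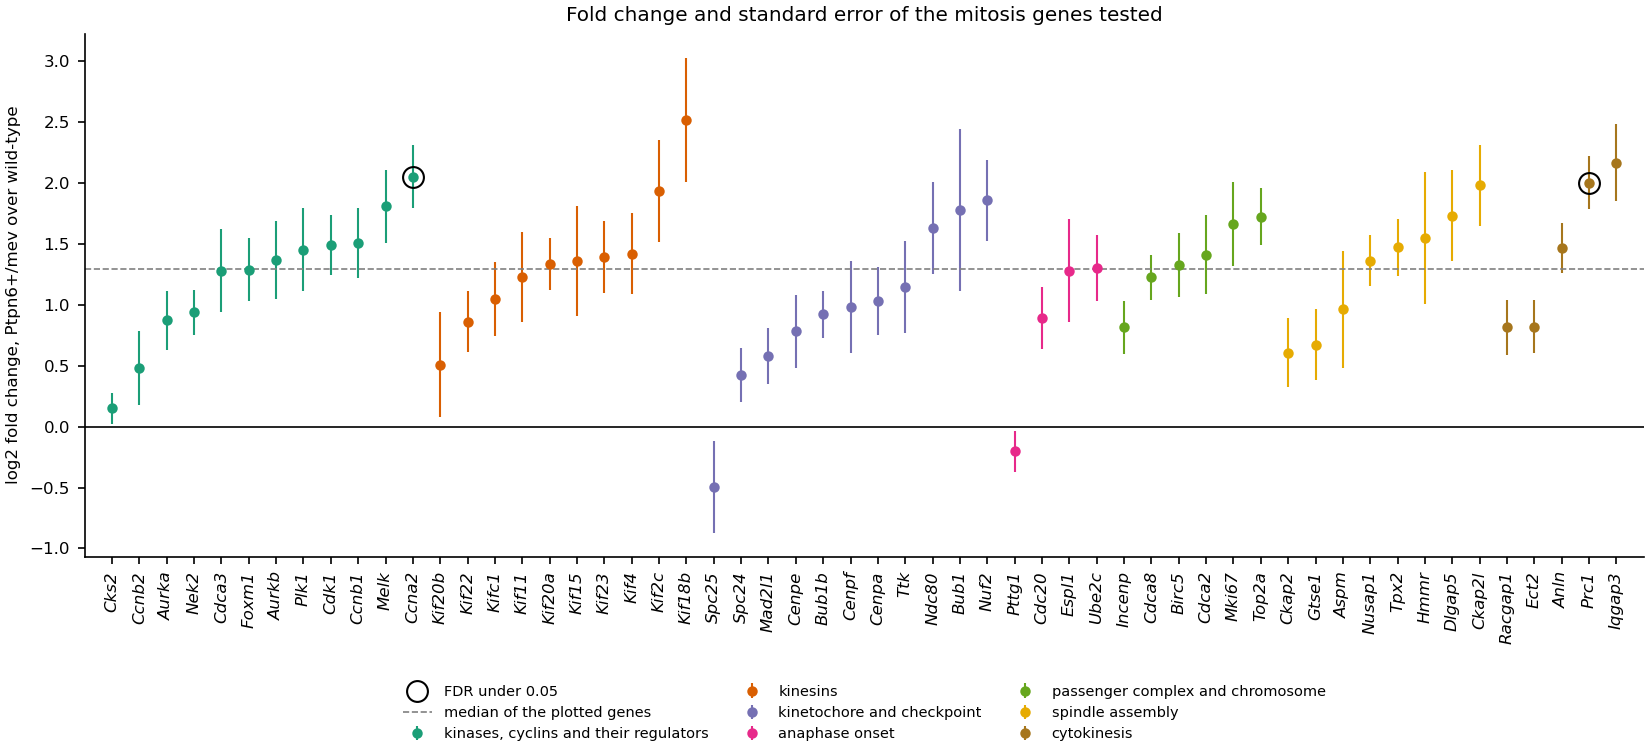
The log2 fold change of Ptpn6+/mev over wild-type kidneys (y axis) for the 56 mitosis genes tested (x axis), coloured by role, with the standard error as bars, the median of 1.30 as a dashed line and rings around genes with an FDR under 0.05. Ccna2 and Prc1 are ringed, Kif18b has the largest value at 2.52 and Spc25 and Pttg1 lie below 0.

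Among the kinases, cyclins and their regulators, 12 of 13 genes were tested and Ccna2 passed the adjusted test. At an unadjusted p under 0.05, 10 were higher, against 5.53% of all genes, and the median log2 fold change was 1.33. As the genes were selected on this contrast, nothing is read from the counts by role, here and below. Ccna2, the cyclin that carries cells through S phase into mitosis, was 3.80, 6.81 and 4.94 FPKM in Ptpn6+/mev mice 1 to 3 and 1.03, 1.19 and 1.36 FPKM in wild-type mice 1 to 3. The lowest Ptpn6+/mev value was thus above the highest wild-type value, with group means of 5.18 ± 1.52 and 1.19 ± 0.17 FPKM (SD, n = 3) and an FDR of 0.0398. Cdk1, the kinase that triggers entry into mitosis, was 11.7, 19.6 and 14.5 against 3.84, 4.72 and 6.76 FPKM. It was the most abundant gene of the list whose groups did not overlap, with a log2 fold change of 1.49 (SE 0.24, FDR 0.0685).

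Plk1, a polo-like kinase of centrosome maturation and kinetochore attachment, was 2.13, 3.06 and 2.44 FPKM in Ptpn6+/mev and 0.50, 0.95 and 1.17 FPKM in wild-type mice (log2 fold change 1.45, FDR 0.135). Aurkb, the Aurora kinase of the passenger complex that corrects faulty attachments, was 3.73, 6.07 and 3.18 against 1.42, 1.21 and 2.15 FPKM (1.37, FDR 0.143). Cdca3, which helps to degrade the mitotic inhibitor WEE1, was 3.26, 5.01 and 5.00 against 0.80, 2.44 and 2.06 FPKM (1.28, FDR 0.182). The groups were separate for all 3 of these genes. Their FDRs were above 0.05 in the quasi-likelihood test, and below it in the exact test of edgeR (0.00471, 0.00835 and 0.0210) and in DESeq2 (0.0144, 0.0112 and 0.0359). Ccnb1, the main mitotic cyclin, had a log2 fold change of 1.51 (SE 0.28), and Melk, a kinase abundant in dividing cells, 1.81 (SE 0.30). Foxm1, a transcription factor of late cell cycle genes, had 1.29, the centrosomal kinase Nek2 0.94 and the spindle pole kinase Aurka 0.87. Cks2 and Ccnb2 had the smallest values of the role. Cks2, a small subunit of cyclin-dependent kinases, was 37.4, 43.8 and 38.5 against 38.1, 33.2 and 31.7 FPKM (log2 fold change 0.15, SE 0.13), with overlap between the groups. Ccnb2, the second B-type cyclin, had 0.48 (SE 0.31), and its means were 2.03 and 1.38 FPKM. Cdc25c, the phosphatase that activates CDK1, had 3, 6 and 8 counts in the Ptpn6+/mev and 1, 1 and 5 in the wild-type libraries, which is too few for the test.

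Kinesins, the motors that push, pull or shorten spindle microtubules, had a median log2 fold change of 1.35 over 10 tested genes of 11. At an unadjusted p under 0.05, 9 were higher, against 5.53% of all genes, and 0 passed the adjusted quasi-likelihood test. The 9 include Kif15, Kif18b and Kif2c, which were tested with the help of the Ptpn6+/mev libraries. Kif22, a motor on chromosome arms, was 3.44, 3.82 and 3.85 FPKM in Ptpn6+/mev and 1.66, 1.46 and 2.71 FPKM in wild-type mice. Kifc1, a motor directed to the minus end that focuses spindle poles, was 2.95, 3.95 and 3.76 against 2.21, 0.88 and 1.74 FPKM. Kif23, the motor of the centralspindlin complex, was 2.88, 2.75 and 3.73 against 0.68, 1.58 and 1.09 FPKM. In these most abundant kinesins the groups did not overlap, and the log2 fold changes were 0.86, 1.04 and 1.39.

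Kif18b, which shortens astral microtubules at their plus ends, had the largest log2 fold change of the whole list, 2.52, with a wide SE of 0.51 (FDR 0.104). It was 0.93, 0.90 and 0.86 FPKM in Ptpn6+/mev and 0.14, 0.03 and 0.27 FPKM in wild-type mice. Those values rest on 32, 31 and 31 counts against 5, 1 and 11, so that the size of the difference is set by few reads in the wild-type mice. Among the kinesins, Kif2c, a depolymerase at centromeres, followed with 1.94 (SE 0.42). Kif4, Kif20a and Kif11, motors of the chromosome arms, the central spindle and pole separation, had 1.42, 1.33 and 1.23. Kif20b, another motor of cytokinesis, was 0.63, 0.35 and 0.32 against 0.22, 0.82 and 0.22 FPKM, with overlap (log2 fold change 0.51, SE 0.43). Kif15, which helps to keep the spindle bipolar, had 18, 14 and 13 against 9, 3 and 6 counts but overlapped in FPKM, at 0.36, 0.75 and 0.63 against 0.80, 0.18 and 0.19. Kif14, a motor of the midbody, was listed at 0.09, 0.24 and 0.12 against 0.08, 0.02 and 0.04 FPKM and was not tested.

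In the kinetochore and spindle checkpoint, 11 genes were tested, with a median log2 fold change of 0.98. Of them, 9 were higher at an unadjusted p under 0.05, against 5.53% of all genes, and 0 passed the adjusted quasi-likelihood test. Those 9 include Bub1, Cenpe, Cenpf, Ndc80 and Ttk, which were tested with the help of the Ptpn6+/mev libraries. The NDC80 complex, the 4-subunit rod that grips the microtubule, was uneven. Ndc80 and Nuf2, its microtubule-binding end, had log2 fold changes of 1.63 (SE 0.37) and 1.86 (SE 0.33). Spc24 and Spc25, the end that sits on the chromosome, had 0.42 (SE 0.22) and -0.50 (SE 0.38). Spc24 was 9.65, 13.5 and 9.94 FPKM in Ptpn6+/mev and 9.95, 7.48 and 7.52 FPKM in wild-type mice. Spc25 was 9.95, 8.85 and 7.19 against 9.75, 17.8 and 6.56 FPKM. Both overlapped between groups, and the highest Spc25 value was that of wild-type mouse 2. Without that mouse the log2 fold change of Spc25 was 0.049. Both of these subunits were several times as abundant as the other end of the rod, whose means were 1.41 FPKM for Ndc80 and 2.27 FPKM for Nuf2 in Ptpn6+/mev kidneys, and 0.43 and 0.72 FPKM in wild-type kidneys.

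Mad2l1, the checkpoint protein that inhibits the APC/C activator CDC20, was 2.98, 4.00 and 3.93 FPKM in Ptpn6+/mev and 2.27, 2.18 and 2.35 FPKM in wild-type mice, without overlap (log2 fold change 0.58, SE 0.23). Bub1b, its partner in that inhibition, was close to even within each group, at 1.94 ± 0.06 against 0.98 ± 0.10 FPKM (SD, n = 3), with a log2 fold change of 0.92 (SE 0.19, FDR 0.110). Bub1, a checkpoint kinase, had 15, 21 and 17 counts against 7, 0 and 9, and its log2 fold change of 1.78 had the widest SE of the list, 0.67. The checkpoint kinase Ttk had 1.15, the centromeric histone Cenpa 1.03, and the large kinetochore proteins Cenpf and Cenpe 0.98 and 0.78.

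At the onset of anaphase, 3 of 4 genes were higher at an unadjusted p under 0.05, against 5.53% of all genes. None passed the adjusted quasi-likelihood test, and Espl1 was tested with the help of the Ptpn6+/mev libraries. Securin (Pttg1), which blocks separase until the APC/C removes it, was the most abundant gene of the list. It was 48.2, 43.4 and 51.0 FPKM in Ptpn6+/mev and 47.2, 63.0 and 44.3 FPKM in wild-type mice, and the groups overlapped (log2 fold change -0.20, SE 0.17). Separase (Espl1), the protease that securin blocks, had means of 0.76 and 0.30 FPKM and a log2 fold change of 1.28 (SE 0.43). Ube2c, the enzyme that supplies the APC/C with ubiquitin, was 4.21, 6.57 and 6.03 against 1.91, 1.97 and 2.59 FPKM, and Cdc20, which brings substrates to the complex, was 4.22, 6.06 and 4.03 against 2.01, 2.28 and 3.06 FPKM. These groups were separate, with log2 fold changes of 1.30 (SE 0.27) and 0.89 (SE 0.25).

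In the passenger complex and on chromosomes, all 6 genes were separate between the groups, against 14.0% of all genes tested. All 6 were higher at an unadjusted p under 0.05, against 5.53% of all genes, and 0 passed the adjusted quasi-likelihood test. Cdca2 was tested with the help of the Ptpn6+/mev libraries. Survivin (Birc5), which targets the passenger complex to centromeres, was 6.25, 9.81 and 8.43 FPKM in Ptpn6+/mev and 2.99, 2.38 and 3.83 FPKM in wild-type mice. Borealin (Cdca8), its partner there, was 7.04, 7.81 and 6.61 against 3.01, 2.40 and 3.32 FPKM. Incenp, the scaffold that activates Aurora B, was 4.83, 6.19 and 4.78 against 2.41, 2.31 and 3.84 FPKM. The log2 fold changes were 1.33, 1.23 and 0.82, beside 1.37 for Aurkb, so that the 4 subunits of this complex lay between 0.82 and 1.37, whereas the 4 of the NDC80 complex spanned -0.50 to 1.86. Top2a, the topoisomerase that untangles sister chromatids, had a log2 fold change of 1.72 and an FDR of 0.0539, just above the threshold. Mki67, the coat protein of mitotic chromosomes used as a marker of proliferation, had 1.66 (SE 0.34), with means of 1.24 and 0.42 FPKM. Cdca2, which returns a phosphatase to chromatin at mitotic exit, had 1.41.

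Among proteins of spindle assembly, the groups were separate for all 8 genes, against 14.0% of all genes tested. Of the 8, 5 were higher at an unadjusted p under 0.05, against 5.53% of all genes, and 0 passed the adjusted quasi-likelihood test. The 8 include Aspm and Hmmr, which were tested with the help of the Ptpn6+/mev libraries. Tpx2, which activates Aurora A on the spindle, was 3.20, 4.76 and 3.11 FPKM in Ptpn6+/mev and 1.26, 1.08 and 1.49 FPKM in wild-type mice (log2 fold change 1.47, FDR 0.0685). Ckap2l, a spindle protein of dividing progenitors, was 1.24, 1.93 and 1.89 against 0.32, 0.32 and 0.57 FPKM (1.98, FDR 0.0711). Dlgap5, which stabilizes kinetochore fibres, was 2.56, 3.41 and 2.45 against 1.23, 0.34 and 0.68 FPKM (1.73, FDR 0.115). The wild-type mean of Ckap2l was 0.40 FPKM against 1.69 FPKM in Ptpn6+/mev kidneys. Gtse1, a protein of microtubule plus ends, was 3.14, 3.46 and 2.96 against 2.41, 1.03 and 2.31 FPKM, and Ckap2, a relative of Ckap2l, was 2.10, 1.34 and 1.54 against 0.82, 1.12 and 1.15 FPKM. Their log2 fold changes of 0.67 and 0.61 were the smallest of the role. Nusap1, a bundler of spindle microtubules, had 1.36 (SE 0.21, FDR 0.0685), Hmmr 1.55 and the spindle pole protein Aspm 0.96.

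Among the 5 genes of cytokinesis the groups were separate for every gene, against 14.0% of all genes tested. All 5 were higher at an unadjusted p under 0.05, against 5.53% of all genes, and Prc1 passed the adjusted test. The median log2 fold change was 1.47. Prc1, which bundles antiparallel microtubules into the central spindle, was 3.14, 4.25 and 3.38 FPKM in Ptpn6+/mev and 1.70, 0.64 and 0.92 FPKM in wild-type mice, with an FDR of 0.0225. Its counts were 88, 111 and 107 against 29, 21 and 29, so the wild-type mice were closer to each other in counts than in FPKM. Iqgap3, a scaffold of the actin cortex in proliferating cells, was 0.91, 1.51 and 0.89 against 0.24, 0.31 and 0.25 FPKM, with the second largest log2 fold change of the list, 2.17 (SE 0.32, FDR 0.0685). Anln, which links actin, myosin and septins in the contractile ring, was 2.93, 4.71 and 4.05 against 1.47, 1.32 and 1.31 FPKM (1.47, FDR 0.0588). Ect2, the exchange factor that switches on RhoA at the division plane, was 3.74, 4.35 and 3.18 against 2.51, 1.32 and 2.61 FPKM, and Racgap1, the partner of Kif23 in centralspindlin that recruits Ect2, was 4.39, 5.89 and 4.74 against 2.17, 2.46 and 2.24 FPKM. Both had a log2 fold change of about 0.8 (0.82 and 0.81), below the 1.39 of Kif23, with SEs of 0.22 and 0.23 for Ect2 and Racgap1.

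The 10 most abundant tested genes by mean FPKM had a median log2 fold change of 0.81, and the groups were separate for 6 of them. The other 46 had a median of 1.36, and the groups were separate for 44. Both counts stand beside 14.0% of all genes tested. Those 46 include the 12 genes below the cutoff of the filter in some wild-type library, and without them the median of the remaining 34 was 1.35. Summed over the 58 genes, the level was 236, 288 and 253 FPKM in Ptpn6+/mev and 163, 176 and 163 FPKM in wild-type mice, a ratio of 1.55. Pttg1 and Cks2 alone made up 85.6, 87.1 and 89.5 FPKM of it in Ptpn6+/mev mice and 85.2, 96.2 and 76.0 FPKM in wild-type mice. The remaining 56 genes summed to 151, 201 and 164 against 77.8, 80.1 and 86.6 FPKM, a ratio of 2.11, and of 2.09 without wild-type mouse 2. By role, the ratio of summed FPKM was 1.69 for the kinases, cyclins and their regulators (2.67 without Cks2), 2.34 for kinesins, 2.46 for the passenger complex and chromosomes, 2.48 for spindle assembly and 2.42 for cytokinesis. It was 1.26 for the kinetochore and 1.04 for anaphase onset, where Spc24, Spc25 and Pttg1 hold most of the sum.

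Within a group, the mice differed in the same way in many of the genes. Ptpn6+/mev mouse 2 was the highest of its group in 44 of the 58 genes and Ptpn6+/mev mouse 1 the lowest in 33. Relative to the mean of each gene over the 6 mice, the median log2 CPM was 0.38, 0.78 and 0.47 in Ptpn6+/mev mice 1 to 3 and -0.61, -0.60 and -0.39 in wild-type mice 1 to 3. Among the wild-type mice, mouse 3 was the highest in 31 genes. Each Ptpn6+/mev mouse was above the mean of the gene in 53 to 56 of the 58 genes and each wild-type mouse in 4 or 5. As the genes were selected on the difference between the groups in these same mice, nothing is read from those last counts.

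**Figure D4:**
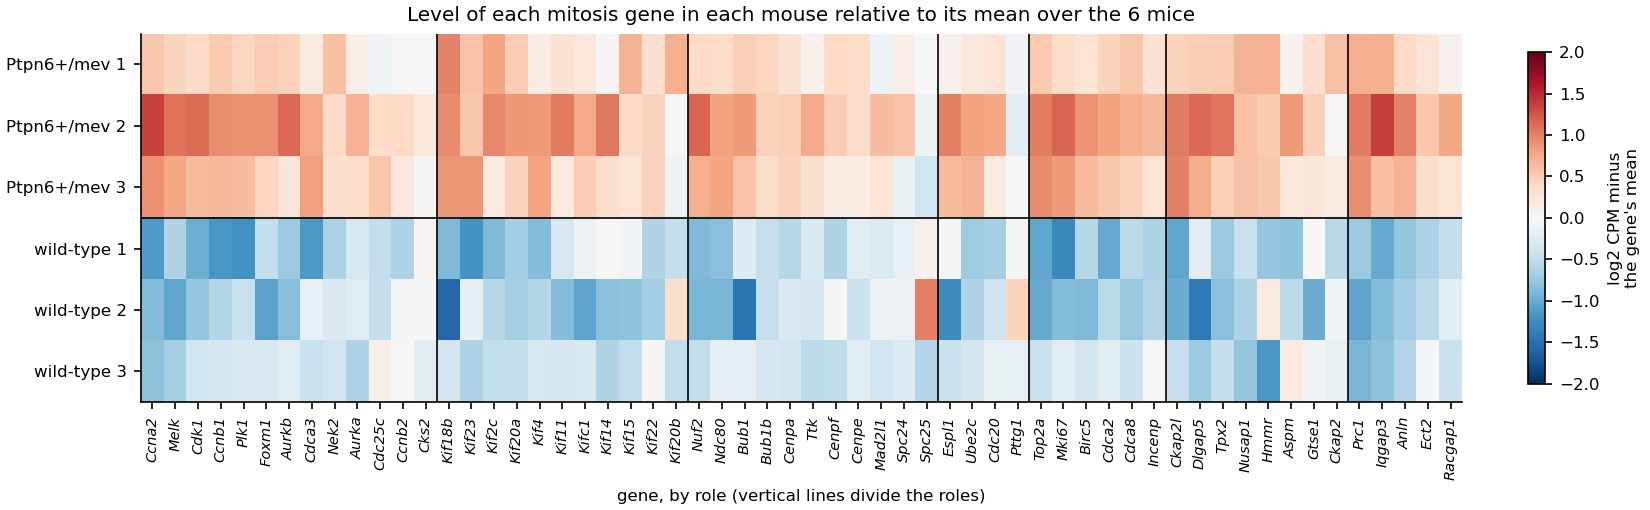
Log2 CPM of each mitosis gene (x axis, by role) in each mouse (y axis) minus the mean of that gene over the 6 mice, in colour from -2 (blue) to 2 (red). Ptpn6+/mev mouse 2 has the deepest red, with a median of 0.78, and Spc25 and Pttg1 are reddest in wild-type mouse 2.

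Other genes of the same process were read from a further list of 71 mitosis genes, of which 66 were in the table and 56 were tested. This list and those below were also drawn up with earlier results of these data known, so they are no independent check. With edgeR's quasi-likelihood test 0 of them passed the adjusted threshold and 30 were higher at an unadjusted p under 0.05 (5.53% of all genes), while the exact test called 11 (1.21% of all genes) and DESeq2 8 (1.09%). Without wild-type mouse 2, 31 of 58 were higher at an unadjusted p under 0.05, against 8.36% of all genes. With all mice, the median log2 fold change of the 56 was 0.60, and the groups were separate for 33, against 14.0% of all genes tested. The 3 most abundant were Zwint, Ncaph2 and Kpna2, a kinetochore protein, a condensin subunit and a nuclear import factor. Zwint was 203, 166 and 191 FPKM in Ptpn6+/mev and 158, 175 and 162 FPKM in wild-type mice, Ncaph2 53.2, 58.8 and 56.1 against 56.8, 49.8 and 55.0 FPKM, and Kpna2 45.2, 50.2 and 44.7 against 34.0, 38.6 and 38.6 FPKM. Zwint and Ncaph2 overlapped and Kpna2 did not.

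The S phase list held 52 genes of DNA replication, all tested. With the quasi-likelihood test of edgeR 0 passed the adjusted threshold and 30 were higher at an unadjusted p under 0.05, with 12 calls by the exact test and 11 by DESeq2, beside the same shares of all genes as for the mitosis list, and the median log2 fold change was 0.68. Without wild-type mouse 2, 29 were higher at that p, against 8.36% of all genes, and the median was 0.55. Pcna, the sliding clamp of DNA polymerase, was 85.3, 116 and 88.8 FPKM in Ptpn6+/mev and 63.3, 51.7 and 65.7 FPKM in wild-type mice. The helicase subunit Mcm6 was 42.1, 59.1 and 49.4 against 35.0, 20.0 and 35.4 FPKM, and Mcm7, of the same ring, was 24.2, 46.3 and 35.3 against 28.4, 14.5 and 33.6 FPKM. In Pcna and Mcm6 the groups were separate and in Mcm7 they overlapped. The summed level of the S phase genes was 578, 833 and 673 against 487, 308 and 521 FPKM, lowest in wild-type mouse 2, and its ratio went from 1.58 to 1.38 without that mouse. The sums of 5 of the 7 roles of the mitosis genes were also lowest in that mouse, while the total over the 58 genes was not, with Pttg1 and Spc25 at their highest there.

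Lists of partners and regulators of the machinery had medians nearer to 0. Over 24 subunits of the APC/C and cohesin, 0 were called by the quasi-likelihood test of edgeR, 0 had an unadjusted p under 0.05 and the median log2 fold change was 0.07. Without wild-type mouse 2, 4 of the 24 were higher at that p, against 8.36% of all genes, and the median was 0.12. Their most abundant members Anapc13, Anapc16 and Rad21 had log2 fold changes of -0.20, 0.11 and 0.18. Over 12 subunits of the DREAM and MuvB complexes, which repress and then activate late cell cycle promoters, the median was 0.16. At an unadjusted p under 0.05 in the quasi-likelihood test, 3 of the 12 were higher, against 5.53% of all genes. Leaving out wild-type mouse 2 gave 5 of 12, against 8.36% of all genes, and a median of 0.23. With all mice, the most abundant, Tfdp1, E2f4 and Rbbp4, were at 0.50, 0.06 and 0.11. The largest values of that list, named after they were seen, were those of Mybl2, the MYB factor of the activating complex, at 1.41 (SE 0.22, FDR 0.0685), and the MuvB subunit Lin9 at 0.89 (SE 0.20, FDR 0.125). Mybl2 was 2.15, 2.95 and 2.64 FPKM in Ptpn6+/mev and 1.06, 0.72 and 0.99 FPKM in wild-type mice, and the groups were separate in both genes. Among 12 tested genes that restrain entry into mitosis, 3 were higher at that unadjusted p, against 5.53% of all genes, and the median was 0.04. In the fit without wild-type mouse 2, 4 of the 12 were higher, against 8.36% of all genes, and the median was 0.07. Cdkn1a, the inhibitor p21, was 103, 66.0 and 82.4 FPKM in Ptpn6+/mev and 49.8, 53.7 and 57.9 FPKM in wild-type mice, and Sfn, the protein 14-3-3 sigma, was 78.1, 88.0 and 87.7 against 64.1, 56.8 and 73.8 FPKM. Both were separate between the groups, at log2 fold changes of 0.56 (SE 0.16, FDR 0.196) and 0.32 (SE 0.10, FDR 0.255), and Gadd45a had -0.15.

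Markers of other cell types of the kidney were read in the same fit. At an unadjusted p under 0.05, 0 of 14 macrophage, 0 of 6 neutrophil, 0 of 11 endothelial and 0 of 10 fibroblast and pericyte markers tested differed by edgeR's quasi-likelihood test. The summed macrophage level was 211, 337 and 341 FPKM in Ptpn6+/mev and 316, 136 and 259 FPKM in wild-type mice. Of 14 proximal tubule markers, 8 were lower in Ptpn6+/mev kidneys at an unadjusted p under 0.05 and 0 at the adjusted threshold, against 6.71% of all genes tested that were lower at that unadjusted p, with a median log2 fold change of -0.45. Their sum was 5608, 5660 and 4729 FPKM against 6547, 14427 and 5049 FPKM, and its ratio was 0.615 with all mice and 0.920 without wild-type mouse 2. Most of that shift was the androgen-regulated gene Kap, at 10201 FPKM in wild-type mouse 2 against 1520 to 2882 FPKM in the other mice. Without Kap, the 13 other markers summed to 2963, 2778 and 2539 FPKM in Ptpn6+/mev and 4098, 4227 and 3530 FPKM in wild-type mice, with separate groups and ratios of 0.699 with all mice and 0.724 without wild-type mouse 2. Of 12 tubular injury markers, 5 were higher and 2 lower at an unadjusted p under 0.05, against 5.53% and 6.71% of all genes. Of the distal nephron markers 1 of 10 was higher and 2 were lower, and 1 of 7 podocyte and 1 of 7 erythroid markers was higher. The higher distal nephron marker and the higher erythroid marker were the same gene, Slc4a1, which is on both lists. Leaving out wild-type mouse 2 gave 2 higher and 2 lower distal nephron markers of 10, against 8.36% and 8.89% of all genes. Without wild-type mouse 2, and against 8.89% of all genes lower, 9 of the 14 proximal tubule, 6 of the 10 fibroblast and pericyte and 3 of the 11 endothelial markers were lower at an unadjusted p under 0.05, and 0 of 14 macrophage markers differed. From an outside dataset, the study places Ckap2l mostly in macrophages, and Ccna2, Kif18b and Iqgap3 in both endothelium and macrophages. The part of any of these cell types, the tubule included, in the levels of the mitosis genes was not tested.

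**Figure D5:**
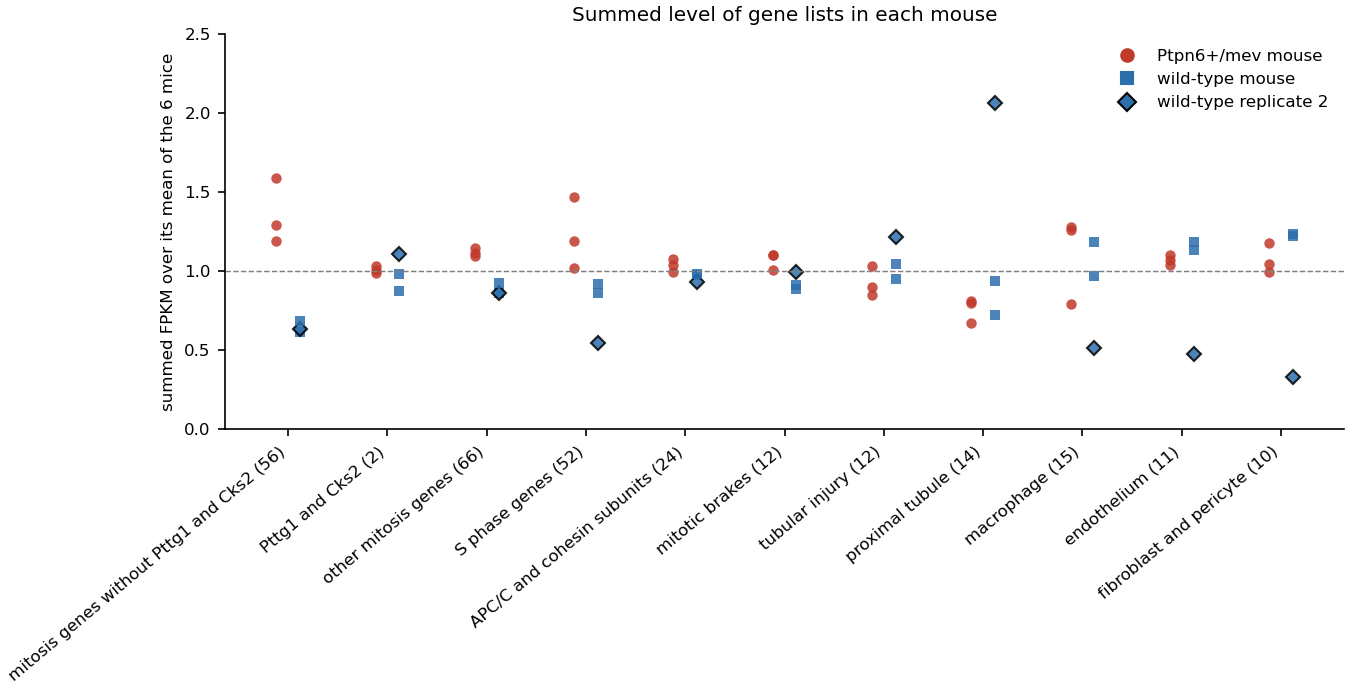
Summed FPKM of each gene list in each mouse divided by its mean over the 6 mice (y axis), with the number of genes in brackets on the x axis, red circles for Ptpn6+/mev mice, blue squares for wild-type mice and a diamond for wild-type mouse 2. The 56 mitosis genes without Pttg1 and Cks2 are separate between the groups at a ratio of 2.11, while the endothelial and fibroblast sums, and through Kap the proximal tubule sum, set wild-type mouse 2 apart.

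The kit used for the libraries does not mark the strand, so reads from exons that overlap a gene on the opposite strand cannot be told apart from that gene. In GENCODE release M21, on GRCm38, 15 of the 58 genes share exon bases with another gene. Ccna2 (chr3:36564865-36572150, minus strand) shares 12.5% of its exon bases with Exosc9, and Prc1 (chr7:80294450-80316259, plus strand) shares 11.1% with Rccd1. The log2 fold changes of these neighbours were -0.14 (SE 0.24) for Exosc9 and -0.11 (SE 0.25) for Rccd1. Larger shares were found for Kif20a with Cdc23, 29.3%, for Ube2c with Tnnc2, 22.8%, and for Kif4 with Pdzd11, 15.1%. Cdc23 and Pdzd11 had log2 fold changes of -0.14 and -0.02, and Tnnc2 was listed at 0 in 5 of the 6 libraries. In 7 genes the ratio of FPKM to CPM differed by more than 1.5 times between libraries, up to 4.53 times in Kif15 and 2.02 times in Prc1.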

How the data were processed

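Kidney mRNA of 3 Ptpn6+/mev and 3 wild-type mice was sequenced. The authors removed low-quality sequence, aligned reads to GRCm38.p5 with TopHat and took FPKM from Cufflinks, and they deposited 1 table of estimated counts and FPKM. The submitters' processing notes also name Bowtie2 and RSEM. Because FPKM depends on each library's estimated transcript length and total, tests used the counts, and FPKM served for levels per mouse.

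Expected counts were rounded, since 1744 of 21367 genes, 4 mitosis genes among them (Kif20a, Kif4, Prc1 and Kifc1), had fractions. The genotypes were compared with edgeR 4.0.16 in R 4.3.3 (TMM, filterByExpr by group, quasi-likelihood test), with Benjamini-Hochberg adjustment over 13036 genes at 0.05. The methods of the study name no count test. Groups and replicate numbers came from the sample titles. The libraries are separate mice, and any 2 of a group differed beyond counting noise (chi-square per degree of freedom 6.48 to 45.3). Totals of 10271590 to 12361745 counts leave rare genes imprecise. Alternatives were other normalizations, the edgeR exact test, DESeq2 1.42.0, limma 3.58.1 on log2 FPKM, other filters, a replicate block and omission of each library. The mitosis genes and all lists were chosen with earlier results of these data known. Values per mouse are given for genes that passed the test, genes that the study names, and the 3 most abundant and the least different gene of each role.

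Promoter windows are from RefSeq, GRCm38.p6. Foxm1, Cdc25c, Ccna2, Spc24, Kif20a, Aurkb, Cdca2, Dlgap5, Incenp and Tpx2 had no window. Relative levels used log2 CPM with a prior of 0.5. RNA extraction is given as RNeasy in the labels and as TRIzol in the methods. Figures used matplotlib 3.10.9 in Python 3.11.15.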

Additional observations from a re-analysis of the deposited data

How the results depend on the processing

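Of 831 fold changes of single mitosis genes under the 15 alternatives, 730 kept their direction and side of the threshold, 88 passed it newly, 12 (all of Ccna2 or Prc1) lost it with the same direction, and 1 reversed, that of Spc25, whose log2 fold change was 0.049 without wild-type mouse 2 and ranged from -0.81 to 0.049 with 1 library left out. The number of mitosis genes called was 33 with the exact test of edgeR, 31 with DESeq2, 9 without a filter, 1 with limma on log2(FPKM + 0.1) and 0 with the replicate block, and 0 to 20 with 1 library left out, highest without wild-type mouse 2. For the other mitosis genes it was 11 (exact test), 8 (DESeq2) and 1 (no filter, and limma with either pseudocount), and 0 to 2 with 1 library left out. For the S phase genes it was 12 (exact test) and 11 (DESeq2), and 0 to 4 with 1 library left out. Over all genes, 18 calls became 390 (exact test), 387 (DESeq2), 52 (no filter) and 1 (replicate block), and 1 to 237 with 1 library left out. The median log2 fold change of the mitosis genes was 0.72 with limma on log2(FPKM + 1), where the pseudocount shrinks low genes, and 1.16 to 1.39 with 1 library left out. The cause of the other changes was not tested.

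Replicate numbers do not pair the mice: same-numbered mice of the 2 groups had correlations of -0.14, -0.18 and -0.13 between their deviations from the group means, and the block result, with 0 mitosis genes and 1 gene in all called, is given for completeness. Precision differed between genes, and the SE of the log2 fold change ran from 0.13 in Cks2 to 0.67 in Bub1.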
